A study of Danio rerio with 20 samples.

Results

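The genes described here encode the parts and helpers of the proteasome, with 1 exception (psmc3ip), and were chosen by gene symbol: every listed gene whose symbol starts with psm, a letter from a to g and a number. The rule used no measured value and took 48 of the 9368 genes listed. They were measured by shallow RNA-Seq in whole AB strain zebrafish embryos collected at 72 hours post fertilization (hpf) in pools of 8 to 10. Embryos were raised from the sphere stage in embryo water alone (3 control pools) or in embryo water with 0.5, 1, 2 or 10 mg/L HFPO-DA (4 pools each), titrated to a neutral pH and with no vehicle. HFPO-DA, known by the trade name GenX, is a short-chain fluorinated acid used in making fluoropolymers. A further control pool, which its label calls an outlier, was left out. The sources used do not say whether pools shared a clutch, so the p-values below measure the spread between these pools. In such pools, fewer cells of a type and less RNA per cell cannot be told apart.

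The proteasome is the protease that degrades most short-lived and damaged proteins of the cell, usually after they have been tagged with chains of ubiquitin. Its 20S core is a barrel of stacked rings: alpha subunits form the outer rings and the entry gate, and beta subunits form the inner rings and hold the proteolytic sites. The 19S particle caps the core, with a ring of ATPases that unfolds substrates and non-ATPase subunits that bind and cut off ubiquitin. Other genes of the set encode activators that can replace the 19S cap, an inhibitor called PI31, and chaperones that build the rings and then leave. In mammals, a shortage of proteasome activity raises the transcription of the subunit genes together.

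HFPO-DA exposure was not associated with a detectable change of the proteasome genes at any concentration. Reads on the 48 genes made up 0.641% ± 0.0260 (SD, n = 3) of all reads on listed genes in control pools. With HFPO-DA the share was 0.655% ± 0.0477 (0.5 mg/L), 0.651% ± 0.0373 (1 mg/L), 0.614% ± 0.0334 (2 mg/L) and 0.629% ± 0.0287 (10 mg/L; SD, n = 4 each). Each exposed group overlapped the control range of 0.620% to 0.670%. The lowest pool, 2 mg/L b, held 0.566% (Wilson 95% interval 0.529% to 0.605%) and the highest, 0.5 mg/L b, held 0.716% (0.674% to 0.761%). Depth was shallow, from 104350 to 581494 reads on listed genes per pool, and a pool's letter is that of its label. Intervals on shares of reads cover counting error only.

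**Figure D1:**
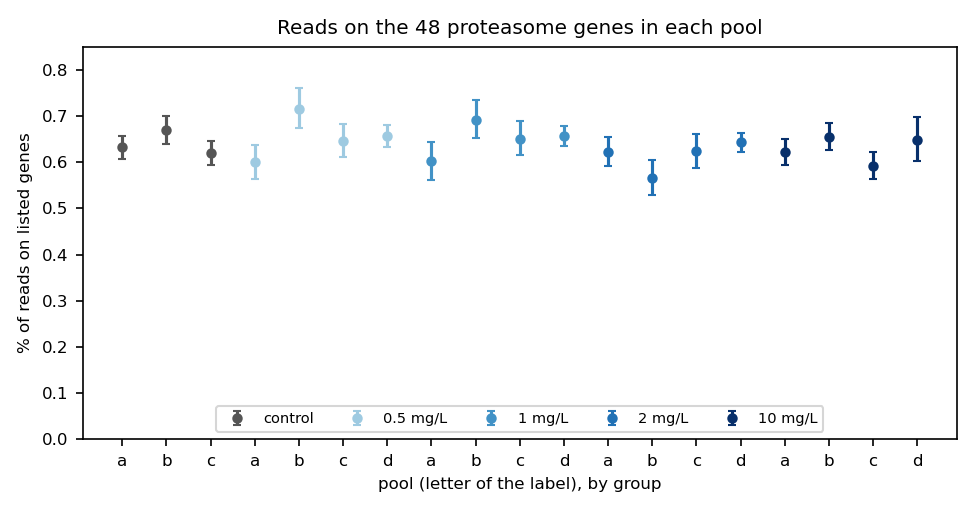
Percent of reads on listed genes that fell on the 48 proteasome genes, for each of 19 pools, with Wilson 95% intervals for counting error. All pools lie between 0.566% and 0.716%, and no group stands apart from the control pools at 0.620% to 0.670%.

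The values used from here on are the deposited TMM-normalized values, in which library sizes are adjusted by the trimmed mean of M-values. These are comparable between pools for a given gene and are not scaled by gene length. Of the 48 genes, 39 passed a filter on the mean value over all pools and were tested among the 5329 genes that did, and 9 fell below it. Differences are on the log2(value + 0.5) scale, exposed minus control, from limma with Benjamini-Hochberg adjustment over the 5329 genes. A gene was called at an adjusted p under 0.1.

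No proteasome gene was called by limma at any of the 4 concentrations, in the mean of the 4 exposures against control, or among the exposures, and neither was any other tested gene (0.0% called in each of the 6 comparisons). The paper, with another test (NOISeq), reports many differentially expressed genes at every concentration. That test was not run here, and the p-values below do not come from it. The paper also measured some of the genes it called by qRT-PCR, and for most of these the pattern correlated with the sequencing. Whether a proteasome gene was among the genes the authors called was not checked. The smallest adjusted p of a proteasome gene was, in rising order of concentration, 0.810, 0.997, 0.902 and 0.959. It was 0.994 for the mean of the exposures and 0.916 among the exposures. At an unadjusted p under 0.05, limma gave 1 of 39 genes at 0.5 mg/L (psmg2), none at 1 mg/L, 2 at 2 mg/L (psme3 and psmg1) and 1 at 10 mg/L (psma1). The corresponding shares of all tested genes were 5.99%, 3.57%, 4.54% and 4.22%. For the mean of the exposures the count was 0 of 39 beside 4.22% of all genes, and among the exposures it was 1 of 39 (psmd5) beside 4.88%. These counts lie near the background. Without control pool a, limma called 40 genes at 0.5 mg/L and 26 for the mean of the exposures, and no proteasome gene was among them. On whole reads recovered from the deposited values, edgeR and DESeq2 also called no proteasome gene. At an unadjusted p under 0.05, edgeR gave 0, 0, 3 and 2 of the 39 genes at the 4 concentrations in rising order. It gave 3 for the mean of the exposures, and DESeq2 gave 0 in each. Among all 5329 tested genes, edgeR gave 284, 204, 251, 245 and 322 in the same order, and DESeq2 gave 121, 55, 83, 65 and 163.

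The genes were split between higher and lower at every concentration. At 0.5 mg/L 22 of the 39 genes were higher and 17 lower than control, with a median log2 difference of 0.03 against −0.08 for all tested genes. The split was 21 to 18 at 1 mg/L (median 0.01, all genes −0.06), 14 to 25 at 2 mg/L (median −0.05, all genes −0.05) and 20 to 19 at 10 mg/L (median 0.01, all genes −0.07). For the mean of the exposures it was 20 to 19, with a median of 0.00 beside −0.08. The sign of these medians depended on the scaling: by reads alone they were −0.03, 0.02, −0.11, −0.04 and −0.04 in the same order. On that scale the medians of all tested genes were −0.14, −0.06, −0.12, −0.12 and −0.12. On recovered reads edgeR gave all-gene medians of −0.011, 0.0055, 0.00023, −0.0062 and −0.014 in the same order. DESeq2 gave −0.0029, 0.0061, −0.0052, −0.0059 and −0.0079. Control pools were deeper, with a median of 345832 reads on listed genes. The exposed medians were 188740, 167419, 215054.5 and 286989 in rising order of concentration. The part of depth in these differences was not tested. All 4 comparisons share the same 3 control pools.

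The data bound the size of change that could have been missed. For the mean of the exposures, the limma 95% interval lay within a 2-fold change either way for 34 of the 39 genes and within 1.5-fold for 25. For single concentrations the interval stayed within 2-fold for 33, 33, 31 and 34 genes and within 1.5-fold for 16, 16, 19 and 18, in rising order of concentration. The genes outside the 2-fold bound for the mean of the exposures were psmf1, psmd5, psmg2, psmg3 and psmc3ip, each with 64 to 136 reads over all pools. The median SE of a proteasome gene was 0.19 on the log2 scale for the mean of the exposures, against 0.34 for all tested genes.

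**Figure D2:**
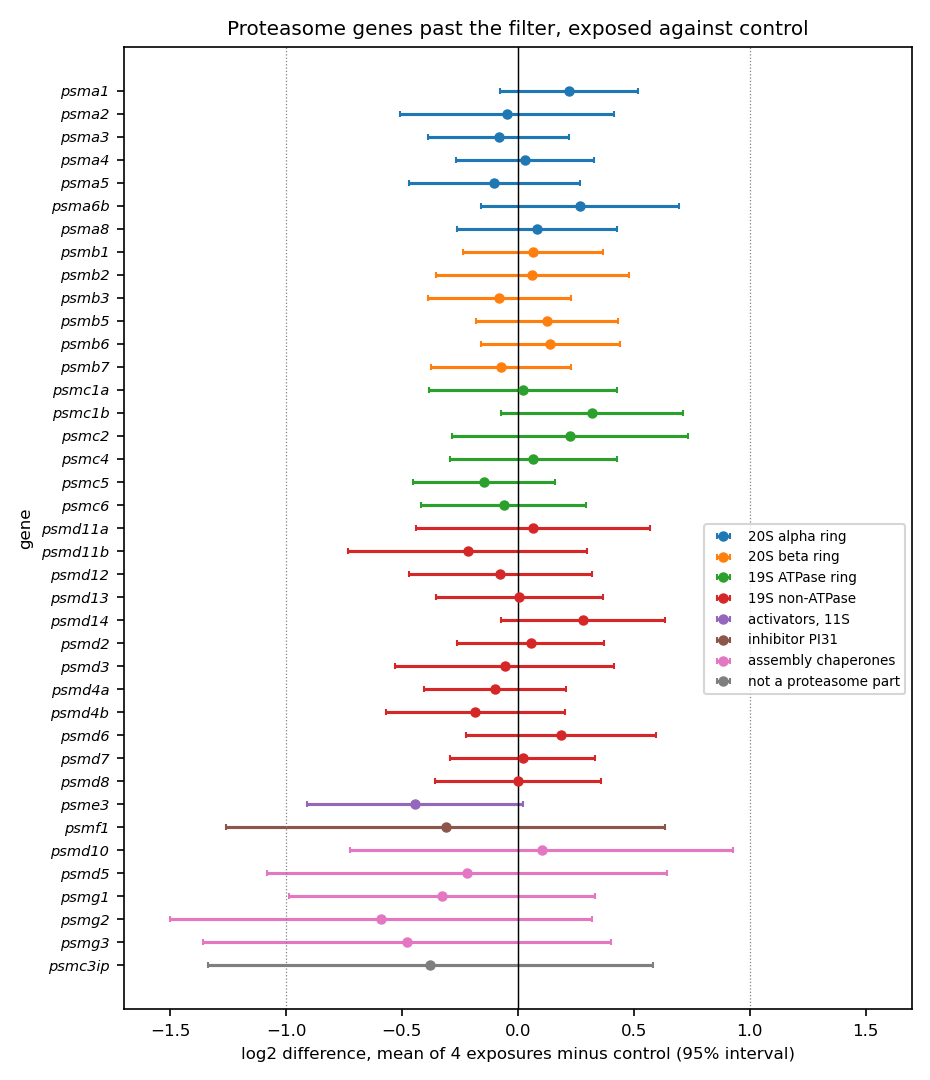
Log2 difference between the mean of the 4 exposures and control for each of the 39 tested proteasome genes, with limma 95% intervals, coloured by the part of the proteasome the gene encodes. Dotted lines mark a 2-fold change. Every interval crosses 0, and the widest belong to the rarely counted chaperone, PI31 and psmc3ip genes.

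The alpha ring was represented by 8 genes, 7 of them tested, with 8006 reads in all. Their summed value was 406 ± 9.87 (SD, n = 3) in control and 427 ± 23.1, 414 ± 36.0, 415 ± 32.8 and 439 ± 23.9 in the exposed groups from the lowest to the highest concentration (SD, n = 4 each). The mean of the exposures was higher for 4 genes and lower for 3, with differences from −0.10 to 0.27. No alpha gene was called in any comparison.

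psma1, an alpha subunit gene, had control values of 66.7, 65.2 and 74.7. At 10 mg/L its 4 pools stood at 82.4, 87.0, 92.3 and 96.8, all above control. The log2 difference there was 0.38 (SE 0.17, limma unadjusted p = 0.0397, adjusted p = 0.959). psma1 ranged from 60.1 to 101.3 at 0.5 mg/L and from 62.8 to 86.0 at 1 mg/L, and both groups overlapped control. Over all exposures the psma1 difference was 0.22 (SE 0.15).

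psma3, another alpha subunit gene, stood below control at 10 mg/L. Its values there were 74.5, 73.8, 70.2 and 72.6, against 86.5, 83.6 and 75.5 in control, so the groups did not overlap. Scaled by reads alone they did, with pool 10 mg/L d at 287.5 per 1000000 reads and control pool c at 277.6. The log2 difference was −0.17 (SE 0.17, limma adjusted p = 0.961). At 0.5 mg/L psma3 ranged from 72.5 to 94.6, around the control values.

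psma4, the proteasome gene with the most reads (1980), had control values of 100.7, 104.8 and 100.7. Its 1 mg/L pools, at 113, 131, 105.3 and 105.4, lay just above them on the TMM scale but not when scaled by reads alone, with a log2 difference of 0.15 (SE 0.18, limma adjusted p = 0.997). For the mean of the exposures psma4 differed by 0.03 (SE 0.15), with a 95% interval from −0.27 to 0.33. psma6b had control values of 26.9, 20.2 and 23.6. In exposed pools it ranged from 21.1 to 42.9, and 10 of 16 pools lay above all control pools. For this and all later counts over the 16 exposed pools, the share of all tested genes with as many was not counted. Each such count rests on the same 3 control pools. The psma6b difference for the mean of the exposures was 0.27 (SE 0.21, limma adjusted p = 0.994). psma6l, a second gene of the same subunit name, had 18 reads in all 19 pools and was not tested.

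The constitutive beta ring was represented by 6 genes, all of them tested, with 8217 reads. psmb5, psmb6 and psmb7 encode the subunits that cut after hydrophobic, acidic and basic residues, and psmb1, psmb2 and psmb3 encode subunits without a proteolytic site. The summed beta value was 426 ± 31.9 (SD, n = 3) in control, 487 ± 29.9 (0.5 mg/L), 411 ± 22.5 (1 mg/L), 435 ± 45.2 (2 mg/L) and 425 ± 38.0 (10 mg/L) in the exposed groups (SD, n = 4 each). All 6 beta genes had a higher mean than control at 0.5 mg/L, by 0.11 to 0.30 on the log2 scale with a median of 0.17, and none passed the test. The 0.5 mg/L sums, 507, 519, 464 and 460, touched the highest control pool at 462, while the other control pools stood at 405 and 409. At 1 mg/L 3 of the 6 beta genes were higher and 3 lower.

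The 20S core as a whole, alpha and beta genes together, summed to 857, 819 and 818 in control and to 912, 928, 906 and 911 at 0.5 mg/L, with no overlap. This separation depended on the scaling. Scaled by the number of reads on listed genes alone (to a sum of 1000000 per pool, without the TMM factor), the 0.5 mg/L pools ran from 3185 to 3542 and overlapped the control range of 3007 to 3248. At 1, 2 and 10 mg/L the 20S sums overlapped control on both scales.

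psmb5 had control values of 80.1, 87.3 and 80.2. Its 0.5 mg/L pools stood at 130.5, 91.0, 90.9 and 91.0, all above control, with pool a far above the others. Scaled by reads alone, psmb5 in pools c and d (328.1 and 320.5 per 1000000 reads) lay below control pool b (346.3). The log2 difference was 0.27 (SE 0.18, limma adjusted p = 0.842). At 10 mg/L psmb5 ranged from 65.3 to 99.3, on both sides of control. psmb7, the beta gene with the most reads (1871), had control values of 130.5, 94.7 and 90.4. Its exposed pools ran from 72.1 to 123, and its difference for the mean of the exposures was −0.07 (SE 0.15), turning to 0.09 when control pool a was left out.

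The inducible beta subunits replace the constitutive ones in immune tissue and under interferon in mammals, forming the immunoproteasome. They were close to the limit of counting in these embryos. psmb9a, the inducible counterpart of psmb6, had 9 reads in all 19 pools beside 1542 for psmb6, or 0.580% of the pair's reads (exact 95% interval 0.266% to 1.1%). psmb8a, the counterpart of psmb5, had 2 reads beside 1697 (0.118%, interval 0.0143% to 0.425%), and psmb10, the counterpart of psmb7, had 2 beside 1871 (0.107%, interval 0.0129% to 0.385%). These shares are of reads and were not corrected for length. The thymus-type gene psmb11b had 1 read and psmb12 had 2. No exposed group held more than 5 reads on these 5 genes together, and control held 3, so no difference between groups was detectable at this depth.

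The 19S ATPase ring was represented by 7 genes with 5127 reads, 6 of them tested. Their summed value was 258 ± 14.4 (SD, n = 3) in control and 282 ± 18.9, 260 ± 34.7, 268 ± 24.9 and 263 ± 17.2 in the exposed groups from the lowest to the highest concentration (SD, n = 4 each). The seventh gene, psmc3, had a single read, in pool 10 mg/L b, whereas the other 6 had 548 to 1128 reads each. The cause of this gap was not tested.

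psmc1b and psmc1a are duplicate zebrafish genes for 1 ATPase subunit. psmc1b had control values of 27.7, 23.9 and 31.5. At 2 mg/L its pools stood at 32.5, 38.3, 40.3 and 40.0, all above control, with a log2 difference of 0.45 (SE 0.22, limma adjusted p = 0.902). At 10 mg/L they were 39.9, 36.9, 39.8 and 29.0, which overlapped control. Over all exposures psmc1b differed by 0.32 (SE 0.19, limma adjusted p = 0.994), the most positive difference among the 39 genes, and 12 of 16 exposed pools lay above all control pools.

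psmc1a, with 1128 reads, differed by 0.02 (SE 0.20) for the mean of the exposures, with control values of 64.5, 46.9 and 56.6 and exposed values from 29.0 to 85.5. psmc1b took 33.2% ± 2.91 (SD, n = 3) of the reads of the pair in control, 33.2% ± 5.19 (0.5 mg/L), 35.6% ± 4.04 (1 mg/L), 43.4% ± 8.82 (2 mg/L) and 40.4% ± 6.67 (10 mg/L) with exposure (SD, n = 4 each). The 2 mg/L pools ranged from 31.2% to 51.2% and overlapped the control range of 30.0% to 35.7%. How alike the copies are, and how reads that match both were counted, was not tested, so the division within the pair is uncertain. The duplicated non-ATPase genes psmd4a and psmd4b, and psmd11a and psmd11b, carry the same limit. psmd4b took 40.0% ± 3.12 of its pair in control and 36.0% ± 7.13 at 10 mg/L, and psmd11b took 57.0% ± 6.55 and 51.0% ± 7.40.

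psmc2 and psmc5 are further ATPase genes whose pools separated from control in 1 group each on the TMM scale. psmc2 had control values of 27.7, 17.5 and 24.4 and stood at 29.3, 32.2, 29.4 and 36.3 at 10 mg/L, a log2 difference of 0.47 (SE 0.24, limma adjusted p = 0.960). psmc5 had control values of 56.7, 55.1 and 61.3 and stood at 46.1, 41.9, 46.1 and 47.6 at 1 mg/L, a difference of −0.34 (SE 0.20, limma adjusted p = 0.997). At the other concentrations both genes overlapped control.

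The 19S non-ATPase subunits were represented by 12 genes with 10481 reads, all tested. Their summed value was 546 ± 15.2 (SD, n = 3) in control and 545 ± 47.1, 570 ± 47.1, 535 ± 22.2 and 551 ± 13.6 in the exposed groups from the lowest to the highest concentration (SD, n = 4 each). Over all exposures 7 genes were higher and 5 lower, with a median of 0.00 and a range from −0.22 to 0.28. psmd2, a scaffold subunit with 1714 reads, differed by 0.06 (SE 0.16). Its control values were 83.7, 85.5 and 86.5 and its exposed values ran from 64.4 to 118.

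psmd14 encodes the deubiquitinase of the 19S particle, which removes the ubiquitin chain as the substrate enters. It had control values of 31.9, 31.2 and 26.7. Its pools stood at 38.0, 38.2, 32.6 and 35.3 at 0.5 mg/L and at 32.6, 45.4, 43.3 and 36.5 at 1 mg/L. At 2 mg/L they were 35.9, 34.7, 32.5 and 39.6, and at 10 mg/L 36.3, 38.8, 34.6 and 31.4. All but 1 of the 16 exposed pools thus lay above all control pools, the exception being 10 mg/L d. On the TMM scale no other proteasome gene reached 14 of 16 in either direction. Scaled by reads alone the psmd14 count was 12 of 16. On that scale psmc5 had 13 pools below control, and psmc1b (above) and psmg1 (below) also had 12. The share of all tested genes with as many pools outside control was not counted. No psmd14 difference passed the test, and they stood at 0.26, 0.38, 0.25 and 0.23 in rising order of concentration (SE 0.22 to 0.23), and 0.28 for the mean of the exposures (SE 0.18, limma adjusted p = 0.994). On recovered reads edgeR gave psmd14 0.33 for the mean of the exposures (unadjusted p = 0.0497, adjusted p = 0.803). DESeq2 gave 0.335 (unadjusted p = 0.0983, adjusted p = 0.999). In the same comparison the edgeR unadjusted p was 0.0439 for psma1 and 0.0462 for psmc1b. The same 3 control pools enter each psmd14 difference, and the psmd14 differences did not follow the order of concentration. The moderated F test of limma among the exposures gave psmd14 an adjusted p of 0.985.

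**Figure D3:**
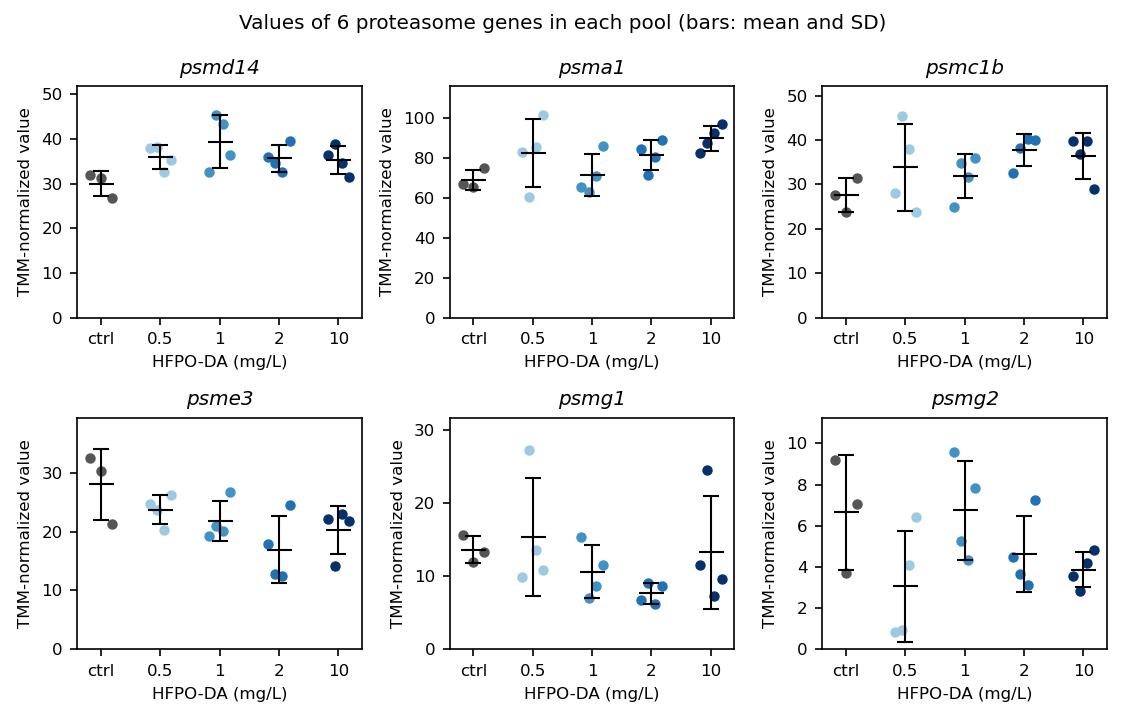
TMM-normalized values of 6 proteasome genes in each pool by HFPO-DA concentration in mg/L (ctrl, control), with the mean and SD of each group. psmd14 lies above the control pools in 15 of 16 exposed pools (12 when scaled by reads alone), and psme3 lies below them in 8 of 16. Groups wholly outside control are psmd14 at 0.5, 1 and 2 mg/L, psma1 at 10 mg/L, and psmc1b and psmg1 at 2 mg/L. The other exposed groups overlap control.

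Genes whose 4 exposed pools lay wholly outside the 3 control pools numbered 2 of 39 at 0.5 mg/L (psmb5 and psmd14), beside 6.4% of all tested genes. They numbered 3 at 1 mg/L (psmc5, psmd14 and psma4) beside 4.77%, 3 at 2 mg/L (psmg1, psmc1b and psmd14) beside 5.46%, and 3 at 10 mg/L (psma1, psmc2 and psma3) beside 5.59%. Scaled by reads alone the counts were 0, 1 (psmc5), 2 (psmc1b and psmg1) and 4 (psma1, psmc2, psmc5 and psmf1) in rising order of concentration, beside 6.51%, 4.37%, 5.91% and 6.57% of all tested genes. The genes separated from control at a given concentration on both scales were thus psmc5 at 1 mg/L, psmc1b and psmg1 at 2 mg/L and psma1 and psmc2 at 10 mg/L.

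The ratio of the summed 19S values to the summed 20S values compares the cap with the core within a pool. It lay between 0.962 and 0.973 in control. It ranged from 0.811 to 0.961 (0.5 mg/L), 0.918 to 1.07 (1 mg/L), 0.853 to 1.04 (2 mg/L) and 0.911 to 0.966 (10 mg/L) with exposure. The control pools were closely spaced. Together they held 3033 reads on 19S genes and 3140 on 20S genes, and counting error on the ratio was not estimated. All 4 pools at 0.5 mg/L lay below the control pools, the nearest at 0.961 against 0.962. The 1 and 2 mg/L pools lay on both sides and the 10 mg/L pools overlapped control.

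**Figure D4:**
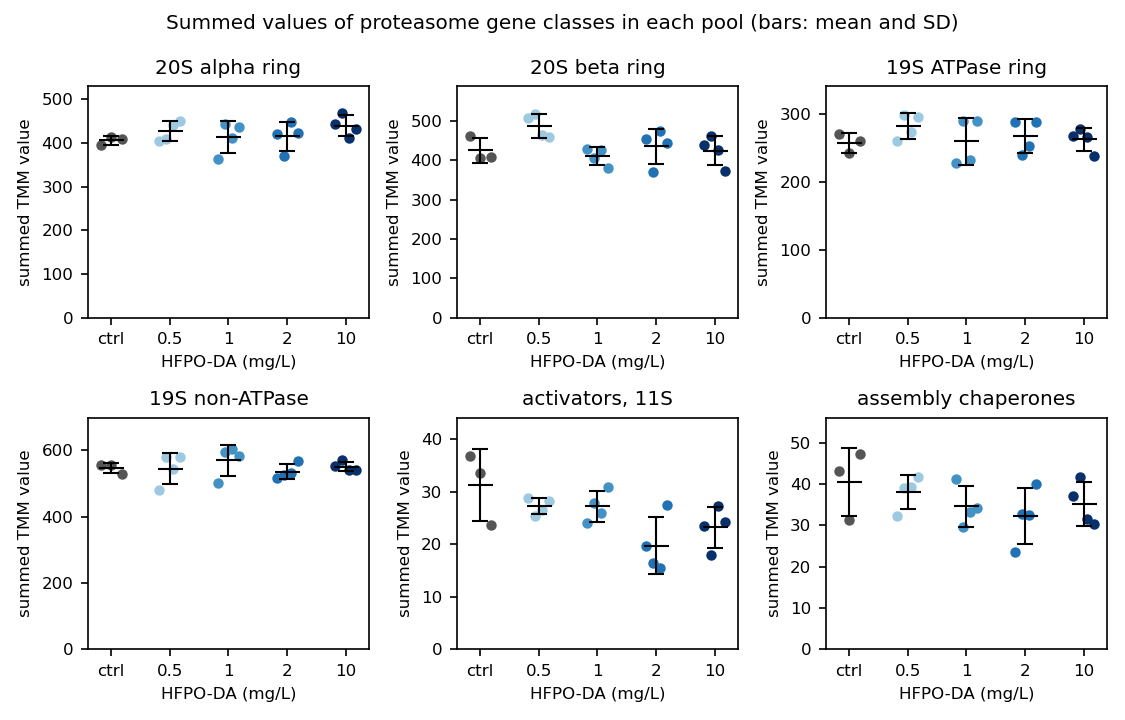
Summed TMM-normalized values of 6 classes of proteasome genes in each pool by HFPO-DA concentration in mg/L (ctrl, control), with the mean and SD of each group. The core and cap classes stay within overlapping ranges, and the beta sums at 0.5 mg/L, 460 to 519, run from just under the top of the control range (405 to 462) to above it.

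The proteasome activators of the 11S family dock on the 20S core in place of the 19S cap. psme3 encodes the nuclear form, which opens the core to some substrates without ubiquitin, and it had the smallest unadjusted p of the proteasome genes for the mean of the exposures. Its control values were 32.6, 30.3 and 21.2. At 2 mg/L the pools stood at 17.9, 12.8, 12.4 and 24.6, the last of them inside the control range, with a log2 difference of −0.74 (SE 0.29, limma unadjusted p = 0.0142, adjusted p = 0.902). Those 2 mg/L values rest on 16, 7, 8 and 51 reads. On recovered reads the unadjusted p there was 0.0445 with edgeR and 0.0920 with DESeq2. The limma differences at 0.5, 1 and 10 mg/L were −0.22, −0.35 and −0.46 (SE 0.25 to 0.27). Over all exposures psme3 differed by −0.44 (SE 0.23, limma unadjusted p = 0.0625, adjusted p = 0.994). No exposed pool lay above all control pools and 8 of 16 lay below them, on both scales. The moderated F test among the exposures gave psme3 an adjusted p of 0.933.

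psme1 and psme2 encode the interferon-inducible form of the activator in mammals. They had 34 and 26 reads over all 19 pools beside 437 for psme3 and were below the filter. psme1 had 10 reads in the 3 control pools and between 0 and 5 in any pool. Neither gene had the depth for a comparison of groups.

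The assembly chaperones comprised 5 genes, all tested but with 695 reads between them. psmg1 and psmg2 encode the partners of a dimer that starts the alpha ring, psmg3 a chaperone of a later step, and psmd5 and psmd10 chaperones of the 19S ATPases. Their summed value was 40.6 ± 8.30 (SD, n = 3) in control and 38.1 ± 4.09, 34.6 ± 4.86, 32.2 ± 6.75 and 35.1 ± 5.29 in the exposed groups from the lowest to the highest concentration (SD, n = 4 each). Over all exposures 4 genes were lower and psmd10 was higher (lower without control pool b), with a median of −0.33, and no gene passed the test.

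psmg1 had control values of 15.6, 12.0 and 13.4. At 2 mg/L its pools stood at 6.73, 9.12, 6.19 and 8.68, all below control, with a log2 difference of −0.80 (SE 0.36, limma unadjusted p = 0.0325, adjusted p = 0.902). Those 2 mg/L values rest on 6, 5, 4 and 18 reads. On recovered reads the unadjusted p there was 0.0283 with edgeR and 0.0989 with DESeq2. The psmg1 pools stood at 9.91, 27.3, 13.6 and 10.9 at 0.5 mg/L and 11.5, 24.6, 7.34 and 9.68 at 10 mg/L. In both of those groups pool b lay above every control pool, and at least 2 of the other pools lay below every control pool. Over the 16 exposed pools, 12 lay below all control pools and 2 above.

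psmg2 had control values of 9.22, 3.68 and 7.08. The 0.5 mg/L pools stood at 0.826, 0.910, 4.07 and 6.41, of which the first 2 hold 0 reads each. The log2 difference was −1.28 (SE 0.61, limma unadjusted p = 0.0442, adjusted p = 0.810), and on recovered reads edgeR gave −0.85 with an unadjusted p of 0.146. Pool values at 1 mg/L, 9.59, 5.24, 4.33 and 7.86, overlapped the control range. psmg3 had control values of 6.38, 5.51 and 13.4, and its exposed pools ran from 1.21 to 10.1. Its difference for the mean of the exposures was −0.48 (SE 0.44).

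psmd5 had the smallest unadjusted p of the proteasome genes among the exposures (limma moderated F, unadjusted p = 0.0432, adjusted p = 0.916). It stood at 0.959, 1.75, 7.21 and 3.70 at 1 mg/L against 6.38, 5.51 and 7.08 in control. Those 1 mg/L values rest on 0, 1, 5 and 8 reads. At 10 mg/L psmd5 ranged from 5.24 to 7.98, around control.

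psmf1, the gene of the inhibitor PI31, had 94 reads in all. Its control values were 7.80, 3.68 and 4.72, and at 10 mg/L it stood at 1.77, 3.78, 2.1 and 2.42. The log2 difference there was −0.95 (SE 0.51, limma adjusted p = 0.959), with an interval from −2.01 to 0.12, on 9 reads in the 4 exposed pools. psmc3ip matches the symbol rule but encodes a meiotic recombination factor and no proteasome part. It had 64 reads, control values of 2.84, 4.60 and 3.93, and a difference of −0.38 (SE 0.48) for the mean of the exposures.

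At the median, the spread of these genes between pools exceeded counting error, by less than for all genes with as many reads. For the 29 proteasome genes with 500 or more reads, the variance within groups was 0.224 to 2.81 times the variance that counting alone gives, with a median of 1.44. Over the 1339 genes with as many reads the median was 1.81. The ratio was over 2 for 5 of the 29 proteasome genes and for 44.1% of the 1339 genes. psmb7 had the highest ratio and psmc5 the lowest of the 29.

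Genes of the wider ubiquitin pathway were also not called. A list of 83 genes covered ubiquitin itself, conjugating enzymes, ligases, shuttle factors and regulators of proteasome genes. It also held proteasome parts or helpers that the symbol rule did not take, of which shfm1, pomp, usp14 and uchl5 were tested. Of the 83 genes, 51 were listed and 43 tested, and limma called 0 in each of the 6 comparisons. At an unadjusted p under 0.05 there were 2 genes at 0.5 mg/L, 1 at 10 mg/L, 1 among the exposures and 0 in the other comparisons. The shares of all tested genes were 5.99% (0.5 mg/L), 3.57% (1 mg/L), 4.54% (2 mg/L) and 4.22% (10 mg/L). They were 4.22% for the mean of the exposures and 4.88% among the exposures. The median log2 difference of the 43 genes for the mean of the exposures was −0.07, with 12 genes higher, beside −0.08 for all tested genes.

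The listed genes with the smallest unadjusted p for the mean of the exposures were ube2g1a and ube2g2, which encode conjugating enzymes of protein quality control, rps27a, and keap1a, which encodes a ligase adaptor that responds to oxidants. ube2g1a had control values of 15.6, 11.0 and 11.8 and exposed values from 9.29 to 26.6, a log2 difference of 0.51 (SE 0.26, limma adjusted p = 0.994). rps27a, which encodes ubiquitin fused to a ribosomal protein, had control values of 1970 in pool a, 816 in pool b and 952 in pool c. Its 16 exposed pools lay between 922 and 1216, so control pool a stood apart from every other pool for this gene. Among the 39 tested proteasome genes, 17 had their highest control value in pool a, 11 in pool b and 11 in pool c.

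Leukocytes are a source of immunoproteasome transcripts in mammals, so their markers are given beside the inducible genes. Of 12 marker genes 5 were listed and 3 tested. The summed marker value ranged from 18.5 to 36.5 in control and, with exposure, 30.5 to 35.5 (0.5 mg/L), 20.2 to 44.0 (1 mg/L), 18.6 to 32.6 (2 mg/L) and 13.1 to 42.6 (10 mg/L). lyz, the lysozyme gene of phagocytes, was the most counted of them with 373 reads, while csf1ra had 2. Of 37 genes of antigen presentation and the interferon response, 17 were listed and 7 tested. limma called 0 of either list in the 6 comparisons. Of the 3 tested leukocyte markers, 1 had an unadjusted p under 0.05 in each of 3 comparisons, in both directions. The shares of all tested genes there were 5.99% (0.5 mg/L), 4.22% (mean of the exposures) and 4.54% (2 mg/L). lyz was higher at 0.5 mg/L (log2 difference 1.07, SE 0.33) and for the mean of the exposures (0.71, SE 0.33). Its control values were 22.7, 10.1 and 6.29, and its 0.5 mg/L pools ran from 20.4 to 26.4, which overlapped control. The other tested markers were lower in both comparisons. In the same order, coro1a differed by −0.71 (SE 0.52) and −0.36 (SE 0.45), and mpeg1.1 by −0.44 (SE 0.58) and −0.84 (SE 0.50). The macrophage gene mpeg1.1 was lower at 2 mg/L, where each pool held 3 or fewer reads, so no fold is given. Its values there were 0.560, 0.912, 1.55 and 1.45, against 4.25, 3.68 and 4.72 in control. The limma adjusted p was 0.810 for lyz at 0.5 mg/L and 0.994 for lyz in the mean of the exposures. It was 0.902 for mpeg1.1 at 2 mg/L. At 2 mg/L, 1 of the 7 antigen presentation and interferon genes had an unadjusted p under 0.05, beside 4.54% of all tested genes. In the other comparisons 0 of these genes did. Their part in the levels of the inducible subunits was not tested.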

How the data were processed

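Libraries were primed with oligo-dT. The authors trimmed the reads, filtered out ribosomal sequence, aligned the remainder to GRCz10, collapsed copies that shared a molecular identifier and counted genes. The submitters' processing notes name UMI-tools 1.1.2, Trimmomatic 0.40, STAR and HTSeq 0.13.5, and the builds GRCz10 and GRCz11. The deposited values are a signal per gene and pool, TMM-normalized by the authors, for 9368 genes and 19 of 20 pools, with 0 further value columns. Zeros had been replaced by 0.5 reads, and all other values were whole multiples of 1 read (100% within 0.01 reads), so whole reads were recovered. Genes below the filter on low values were given no fold, and no fold is given against a group whose pools all held 3 or fewer reads.

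Proteasome genes and the lists used beside them were chosen with earlier results of these data known. Symbols are those of the deposited values, of which 47 of 48 matched RefSeq GRCz12tu by symbol and 1 by synonym. Proteasome genes without listed values were not analysed here, and no sequences or coordinates are given.

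Each exposure was compared with control by limma 3.58.1 in R 4.3.3 (two-sided, eBayes with trend) on log2(value + 0.5), over 5329 genes with a mean above 2.75, with Benjamini-Hochberg adjustment and calls at 0.1. The mean of the exposures and the moderated F test among them came from 1 fit over 5 groups. The authors' own test, NOISeq, was not run. edgeR 4.0.16 and DESeq2 1.42.0 were run on recovered reads as alternatives. The test code was checked on simulated data. The text names the 8 genes with the smallest p for the mean of the exposures, those with no overlap with control, the most counted gene of each class and the 4 genes of the ubiquitin list with the smallest p. Genes named beyond this rule (the genes below the filter and psmc3, psmd4a, psmd4b, psmd5, psmd10, psmd11a, psmd11b, lyz and csf1ra among them) were chosen after their values were seen.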

Additional observations from a re-analysis of the deposited data

Results flagged for a closer look

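Within groups of 4 pools, 3 of 100 gene and group combinations had a pool far from the other 3 by Dixon's ratio at its 95% critical value, where chance gives about 5%. psme3 stood at 14.2 in pool 10 mg/L b, with the other pools between 21.8 and 23.1. psmb5 stood at 130.5 in pool 0.5 mg/L a, with the others between 90.9 and 91.0. psmb7 stood at 80.7 in pool 10 mg/L c, with the others between 104.0 and 108.8. The cause of these values was not tested.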

How the results depend on the processing

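No proteasome gene was called by limma, edgeR or DESeq2 under any of 133 alternative fits (pseudocount, filter, scaling, trend, test, samples in the fit, pools left out and the letters as a block). The smallest adjusted p of a proteasome gene in any of them was 0.238, at 0.5 mg/L without control pool a. Over all genes, limma calls went from 0 to 40 at 0.5 mg/L and to 26 for the mean of the exposures without control pool a, and the other alternatives called at most 4 genes in a comparison. Leaving out 1 pool at a time, the median log2 difference ranged from −0.03 to 0.09 (0.5 mg/L), −0.05 to 0.05 (1 mg/L), −0.08 to 0.00 (2 mg/L), −0.07 to 0.07 (10 mg/L) and −0.05 to 0.01 (mean of the exposures). With every pool scaled to the same sum the medians were −0.03, 0.02, −0.11, −0.04 and −0.04 in that order, with edgeR 0.10, 0.06, −0.02, 0.11 and 0.04, and with DESeq2 0.12, 0.06, −0.02, 0.10 and 0.05. The sign of the mean-of-exposures difference turned for 5 of the 39 genes with the same-sum scaling, 1 with edgeR, 1 with DESeq2, 1 with the replicate block and 0 to 7 with 1 pool left out (7 without control pool a). Of the genes named in the text by rule, 3 turned. With the same-sum scaling, psma4 was −0.0094 and psmc1a −0.018. With 1 pool left out, psmb7 ranged from −0.172 to 0.0912, positive without control pool a, and psmc1a from −0.0992 to 0.129, negative without control pool b (−0.0992), 0.5 mg/L b (−0.0082), 1 mg/L b (−0.0044), 2 mg/L a (−0.022) or 10 mg/L b (−0.010). The cause was not tested.

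Same-letter deviations correlated at −0.07 to 0.17 over 36 pairs, and 3 pairs were over 0.1. The main fits did not pair pools by letter. These 3 were d pools (0.5 with 1 mg/L 0.17, 0.5 with 2 mg/L 0.11, 1 with 2 mg/L 0.14), and no control d pool was analysed here. The d pools of 0.5, 1 and 2 mg/L also held the most reads (443076, 581494 and 579196). Pool 10 mg/L d correlated with them at 0.05, 0.05 and 0.07 in that order. The part of depth in these correlations was not tested. Of 19 pools, 8 correlated best with their own letter. With the letter as a replicate block, limma called 0 proteasome genes in all 6 comparisons, and the medians were −0.03, −0.05, −0.08, 0.07 and, for the mean of the exposures, −0.03. Without a control d pool, the block takes up the exposed d pool in each fit of a single concentration. The medians of those fits equal the ones with that d pool left out, so they cannot test a pairing of d pools. A filter on recovered reads and zeros set back to 0 were added after seeing the data.

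Depth limits the genes below the filter, which had at most 34 reads each, and psmf1, psmd5, psmg2, psmg3 and psmc3ip, whose intervals reach beyond 2-fold.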
